A study of Mus musculus with 18 samples.

Results

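Neutrophils find bacteria and injured tissue through G protein-coupled receptors for formyl peptides, complement fragments and lipid mediators, and the 7 genes described here encode such receptors: Fpr1, Fpr2, C5ar1, C5ar2, C3ar1, Ltb4r1 and Ptafr. They were taken by symbol from the 34896 genes of the expression table, and 6 of the 7 passed the filter on low values (at least 1 TPM in at least 3 of 9 libraries), beside 13061 genes that passed in all. TPM (transcripts scaled to a fixed total in each library) is a level per transcript length, so that genes can be compared with each other. Expression was measured by RNA-seq in 3 libraries each of granulocyte-monocyte progenitors (GMP), pre-neutrophils (preNeu) and mature neutrophils (matNeu) of WT C57BL/6 mice. CHD4, the ATPase of the NuRD complex, was mapped by ChIP-seq in 1 library of WT GMPs and 1 of Gfi1-/- GMPs (labelled Gfi1KO), which lack the transcriptional repressor GFI1. H3K4me2, a histone mark of promoters and enhancers, was mapped in 1 library of each of the 3 WT cell types. All cells came from bone marrow of adult mice of 6 to 12 weeks, and the labels name no transgene. According to the methods, the cells were sorted by surface markers, GMPs as lineage-negative, cKIT+, SCA-, CD16/32+ and CD34+, preNeu cells as Mac-1+ and Gr-1+ with high cKIT and medium CXCR4, and matNeu cells as Mac-1+, Gr-1+, SiglecF- and CXCR2+. Nothing says that the 3 libraries of a cell type came from separate mice, so p-values measure the spread between these libraries, which may be technical.

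As background, these receptors signal mostly through inhibitory G proteins, which release beta-gamma subunits that activate phosphoinositide 3-kinase gamma and phospholipase C beta and so steer actin and motility. FPR1 and FPR2 bind N-formylated peptides that bacteria and mitochondria release, and FPR2 also binds annexin A1. C5AR1 is the classical receptor of the complement fragment C5a. C5AR2 binds the same fragment but does not couple to G proteins, and C3AR1 binds C3a. LTB4R1 (BLT1) is the high-affinity receptor of leukotriene B4 (LTB4), and PTAFR is the receptor of platelet-activating factor (PAF).

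Groups follow the sample titles, which another label contradicts for every RNA-seq library and for the preNeu and matNeu H3K4me2 libraries. The RNA-seq libraries carried the markers of their titles, and for the peak lists no such check was made. The summed TPM of 6 GMP markers was 42392 to 43930 in GMP, 8030 to 9081 in preNeu and 10.1 to 30.3 in matNeu libraries. For 6 preNeu markers it was 83.8 to 119.8, 105723 to 134153 and 4352 to 6675 in the same order, and for 8 mature neutrophil markers 759.9 to 871, 40260 to 49677 and 48561 to 72349. The mature neutrophil sums overlapped between preNeu and matNeu libraries, so it is the GMP and preNeu markers that tell these 2 stages apart. Markers of other cell types moved as well. Over 9 monocyte and macrophage markers the sum was 1895 to 2289 in GMP, 66.6 to 105 in preNeu and 618 to 724 in matNeu libraries. In matNeu libraries that sum came mainly from Csf1r (253 to 349.6 TPM), Cd68 (232 to 275 TPM) and Adgre1 (75.7 to 97 TPM), while the monocyte genes Ccr2, Cx3cr1, Klf4 and Ms4a6c stood between 0.0676 and 1.98 TPM, F13a1 between 1.58 and 4.98 TPM and Irf8 between 6.93 and 19.2 TPM. The 5 eosinophil markers summed to 852 to 1101, 38.8 to 50.7 and 35.9 to 54.1. In matNeu libraries most of that sum came from Siglecf, at 45.1, 31.2 and 48.7 TPM, although these cells were sorted as SiglecF-. Siglecf stood at 20.2, 14.8 and 23.5 TPM in preNeu libraries, and Epx was listed at 0 in every matNeu library. The 5 basophil and mast cell markers summed to 524 to 709, 309.9 to 492 and 1.73 to 12.6. The 5 B cell markers summed to 78.9 to 94.5 in GMP, 26 to 45.3 in preNeu and 61.2 to 133 in matNeu libraries. All 5 were at 1 TPM or more in every matNeu library, and the sums there were 61.2, 71.9 and 133. The 4 T cell markers reached at most 14.3, the 5 erythroid markers 16.4 and the 4 platelet markers 50.2 in any library. The part of these cells in the receptor levels was not tested. In bulk samples such as these, a change in the share of cells that express a gene and a change of RNA per cell cannot be told apart.

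The genes lie at 5 places in the genome (GRCm38, genes from GENCODE M21). Fpr1 (chr17:17876471-17883940, minus strand) and Fpr2 (chr17:17887824-17893952, plus strand) are neighbours transcribed away from each other, with start sites 3.9 kb apart. C5ar1 (chr7:16246743-16259540) and C5ar2 (chr7:16234585-16244154) lie one behind the other on the minus strand, with start sites 15.4 kb apart. C3ar1 (chr6:122847138-122856161, minus strand), Ltb4r1 (chr14:55765962-55768494, plus strand) and Ptafr (chr4:132564067-132582683, plus strand) stand alone. The annotated span of Fpr3 runs over nearly all of Fpr2 on the same strand, so that reads could be divided between them, and the level of Fpr2 is uncertain to that extent. Fpr3 was listed at 0 in every GMP and preNeu library and at no more than 0.469 TPM in matNeu libraries.

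Promoters of 4 genes are shown, as the 250 bases before the RefSeq start site (RefSeq promoters, GRCm38.p6, 5′ to 3′ on the strand of the gene): those of the neighbours Fpr1 and Fpr2, of C5ar2, near which no CHD4 peak was listed, and of Ltb4r1, the member with the highest level in GMPs. RefSeq promoters were found for 7 of the 7 genes, with 2 for C5ar2, of which the one at the annotated start is shown. Capitals mark matches on either strand to AAATCA (the core of GFI1 sites), GGAAGT (the core of many ETS factor sites, SPI1 among them), TGTGGT (RUNX factors) and TTGCNNAA (C/EBP factors). None of the 4 motifs is part of another.
Fpr1 (chr17:17883940-17884189, minus strand): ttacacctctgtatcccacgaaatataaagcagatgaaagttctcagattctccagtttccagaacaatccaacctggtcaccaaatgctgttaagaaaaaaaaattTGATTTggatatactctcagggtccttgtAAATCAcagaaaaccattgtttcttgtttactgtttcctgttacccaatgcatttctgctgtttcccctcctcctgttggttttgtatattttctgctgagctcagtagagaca
Fpr2 (chr17:17887574-17887823, plus strand): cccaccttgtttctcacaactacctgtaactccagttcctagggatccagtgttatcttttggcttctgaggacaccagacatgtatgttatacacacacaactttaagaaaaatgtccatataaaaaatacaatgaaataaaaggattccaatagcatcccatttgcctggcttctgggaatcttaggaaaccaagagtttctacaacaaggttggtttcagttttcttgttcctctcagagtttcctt
C5ar2 (chr7:16244155-16244404, minus strand): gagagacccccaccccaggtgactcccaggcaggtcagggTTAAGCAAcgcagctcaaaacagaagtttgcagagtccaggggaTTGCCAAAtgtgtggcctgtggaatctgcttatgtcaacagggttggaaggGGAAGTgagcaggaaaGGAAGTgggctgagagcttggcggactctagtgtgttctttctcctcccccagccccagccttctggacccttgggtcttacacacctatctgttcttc
Ltb4r1 (chr14:55765712-55765961, plus strand): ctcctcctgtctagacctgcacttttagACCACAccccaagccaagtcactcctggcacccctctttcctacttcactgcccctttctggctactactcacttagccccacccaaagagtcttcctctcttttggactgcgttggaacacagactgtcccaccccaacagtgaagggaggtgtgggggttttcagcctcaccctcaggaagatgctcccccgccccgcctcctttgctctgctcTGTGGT
The Fpr1 promoter held AAATCA on the strand of the gene, 114 bases before the start, and on the opposite strand, 143 bases before it. It was the promoter of 1 of the 7 genes with this motif, which 12.4% of all 32851 RefSeq promoters held. The Fpr2 stretch held none of the motifs. C5ar2 had GGAAGT 115 and 99 bases before its start and TTGCNNAA at 210 and 166 bases. GGAAGT was present in the promoters of 2 of the 7 genes (C5ar1 and C5ar2) and in 19.7% of all, and TTGCNNAA in 1 of 7 and in 9.56% of all. TGTGGT was present in 2 of 7 (C5ar1 and Ltb4r1) and in 14% of all, and in Ltb4r1 it ended at the base before the start. A match of letters does not show that a factor binds.

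All 6 receptors that passed the filter were higher in preNeu and in matNeu cells than in GMPs, and 5 of them rose again from preNeu to matNeu cells, while Ltb4r1 fell. By limma with Benjamini-Hochberg adjustment over all genes, 6 of 6 were called higher and 0 lower in preNeu against GMP, where 14.7% of all genes tested were called higher and 44.3% lower. From preNeu to matNeu, 5 of 6 were called higher and 1 lower, against 22.9% and 39.8% of all genes. In matNeu against GMP, 6 of 6 were higher and 0 lower, against 22.8% and 54.1%. Fpr1, Fpr2, C5ar1 and C5ar2 passed the filter only through the later stages, where they were high, so against GMP they could hardly be called lower. C3ar1, which stayed low, was removed by the same filter. The counts against GMP therefore follow in part from the filter and add little to the values of the single genes. The median log2 change of all genes tested was -0.52, -0.32 and -0.92 in these 3 comparisons, and the changes of the receptors are to be read against these values. Of all calls, 25, 36.5 and 29.6% were higher, which became 45.1, 47.2 and 45.2% after median of ratios scaling and 48.2, 55.3 and 51.7% after upper quartile scaling of the libraries, with the same counts of receptors called. The 3 comparisons share libraries with each other.

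**Figure D1:**
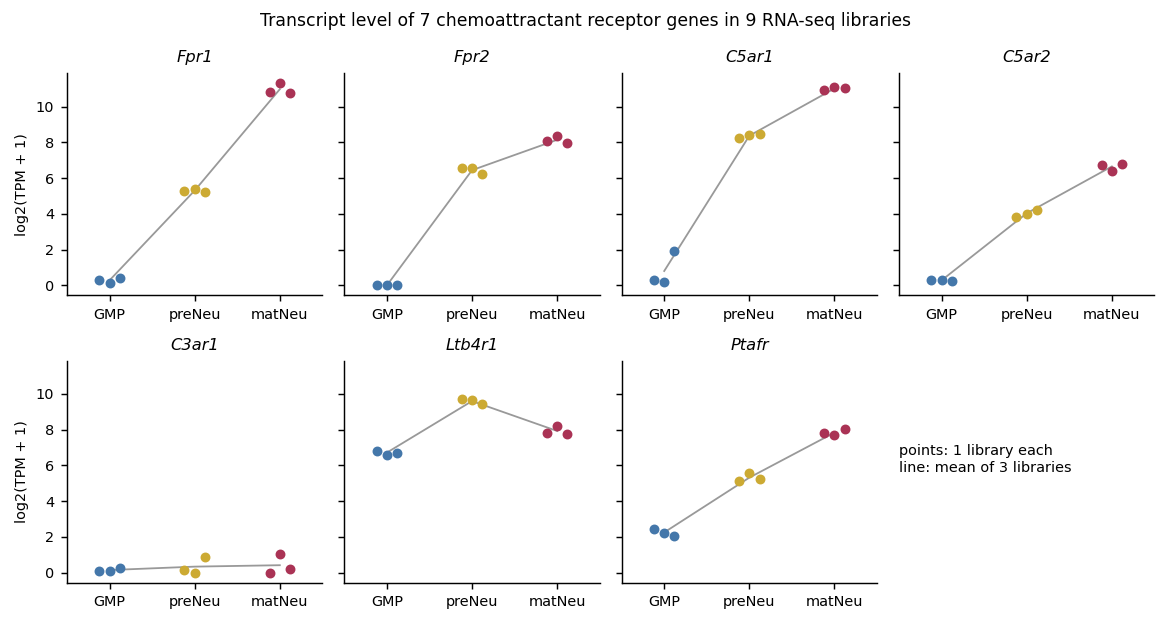
Level of the 7 receptor genes as log2(TPM + 1) in each of the 9 libraries (points) with the mean of the 3 libraries of a cell type (grey line). Fpr1, Fpr2, C5ar1, C5ar2 and Ptafr climb at both steps, Ltb4r1 peaks in preNeu cells, and C3ar1 stays at or below 1.1 TPM.

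Fpr1 rose steeply at both steps. Its levels were 0.233, 0.113 and 0.308 TPM in the GMP libraries, 38.1, 41.8 and 36.2 TPM in preNeu and 1837, 2533 and 1766 TPM in matNeu libraries. The 3 groups stood far apart with no overlap. On the log2(TPM + 1) scale, which understates the change of a gene near 0, Fpr1 rose by 5.03 (SE 0.17, adjusted p = 7.62e-09, limma) from GMP to preNeu and by a further 5.67 (SE 0.17, adjusted p = 1.32e-09) to matNeu cells. In matNeu against GMP its log2 change of 10.7 was in place 4 of 13061 genes tested, and that of C5ar1, at 10.22, in place 6. Without the third GMP library the values were 10.75 for Fpr1 and 10.77 for C5ar1, so that their order rests on that library.

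Its neighbour Fpr2 was higher than Fpr1 in preNeu cells and lower in matNeu cells. Fpr2 was listed at 0 in every GMP library, where 0 of 72 ribosomal protein genes were at 0. It stood at 93.5, 93.4 and 73.4 TPM in preNeu and at 274, 326 and 252 TPM in matNeu libraries. The preNeu and matNeu ranges did not overlap, and the log2 change between them was 1.70 (SE 0.17, adjusted p = 6.85e-06, limma). Both comparisons with GMP were called (adjusted p = 1.41e-09 for preNeu and 9.55e-11 for matNeu, limma), and no fold is given against libraries at 0.

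The balance of the 2 formyl peptide receptors turned over between the stages. The ratio of Fpr1 to Fpr2 within a library was 0.408, 0.448 and 0.493 in preNeu and 6.71, 7.76 and 7.02 in matNeu libraries. Every preNeu library held more Fpr2 and every matNeu library more Fpr1. An exact permutation test of the log2 ratios, two-sided, gave p = 0.1, the smallest value that 3 libraries against 3 can give.

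C5ar1 reached levels that overlapped those of Fpr1 in matNeu cells but was already high at the preNeu stage. Its levels were 0.224, 0.159 and 2.74 TPM in GMP, 302, 336 and 358 TPM in preNeu and 1922, 2239 and 2073 TPM in matNeu libraries. The groups were apart, and within GMP the third library stood above the other two. The log2 change was 7.57 (SE 0.36, adjusted p = 8.93e-08, limma) from GMP to preNeu and 2.64 (SE 0.36, adjusted p = 7.9e-05) from preNeu to matNeu. Without that GMP library the first value was 8.12. The mature neutrophil markers summed to 759.9 TPM and the monocyte and macrophage markers to 1895 TPM in it, both the lowest of the 3 GMP libraries. The preNeu markers (119.8 TPM), the neutrophil gene Cxcr2 (8.17, 7.65 and 11.9 TPM in the GMP libraries) and the macrophage genes C1qa (0.318, 1.85 and 2.09 TPM) and C1qb (0.3, 1.45 and 2.37 TPM) were highest in it. C1qa and C1qb are in none of the marker lists. Not highest in it were S100a8, S100a9, Ly6g and Mmp8 of the mature neutrophil markers, the preNeu marker Ngp and the macrophage marker Adgre1. Nor was Vcam1, also in no marker list, at 22, 27.9 and 24.7 TPM. Of the monocyte and macrophage markers, Csf1r (232, 192 and 188 TPM) and Cx3cr1 (27.8, 26.5 and 23.2 TPM) were lowest in that library. S100a8 stood at 22.1, 44.4 and 28.9 TPM, Ngp at 12.6, 10.5 and 9.18 TPM and Adgre1 at 14.9, 10.7 and 11.4 TPM. The part of such cells in the C5ar1 value was not tested.

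C5ar2, which binds the same ligand, ran at a fraction of the level of C5ar1 with a parallel course after the GMP stage. It stood at 0.254, 0.222 and 0.167 TPM in GMP, 13.3, 15.2 and 17.9 TPM in preNeu and 106, 83.8 and 112 TPM in matNeu libraries, with no overlap between groups. It rose by 3.75 (SE 0.21, adjusted p = 2.62e-07, limma) and then by 2.62 (SE 0.21, adjusted p = 1.16e-06) on the log2 scale. The ratio of C5ar1 to C5ar2 was 22.6, 22 and 20.1 in preNeu and 18.2, 26.7 and 18.5 in matNeu libraries. These ranges overlapped (exact permutation test of the log2 ratios, two-sided, p = 0.8), which with 3 libraries a group does not show that the ratio is the same.

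**Figure D2:**
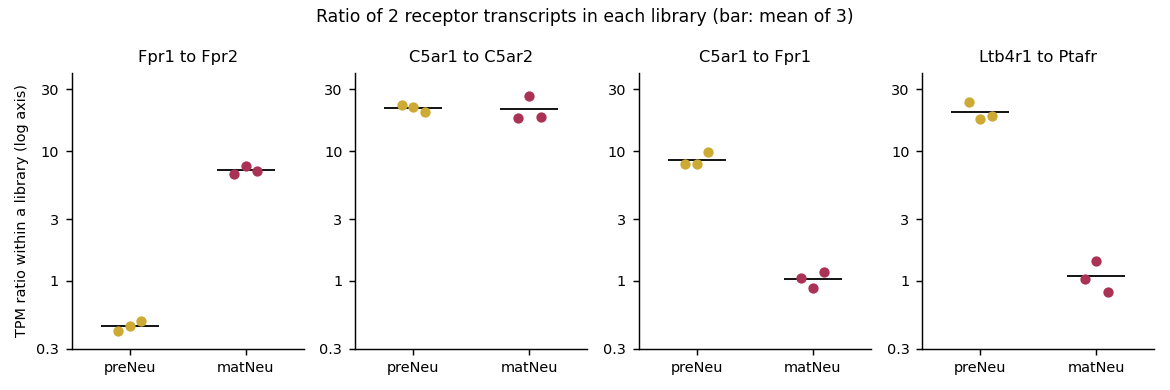
Ratio of the TPM of 2 receptor genes within each library (points, log axis) in preNeu and matNeu cells, with the mean of 3 libraries (bar). The mean ratio of Fpr1 to Fpr2 goes from 0.45 to 7.16 and that of Ltb4r1 to Ptafr from 20.1 to 1.09, while that of C5ar1 to C5ar2 is 21.6 and 21.1.

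C3ar1 was near the floor throughout. Its levels were 0.0616, 0.0599 and 0.203 TPM in GMP, 0.0976, 0 and 0.838 TPM in preNeu and 0, 1.1 and 0.134 TPM in matNeu libraries, so that it was listed at 0 in 1 preNeu and in 1 matNeu library. It reached 1 TPM in a single library and failed the filter. When every gene with a value above 0 was tested (20749 genes), its log2 changes were 0.19 (SE 0.31, adjusted p = 0.707, limma) in preNeu against GMP and 0.08 (SE 0.31, adjusted p = 0.919) in matNeu against preNeu.

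Ltb4r1 followed a course of its own. It was the one member with a high level in GMPs, at 113, 96.7 and 104 TPM, rose to 828, 809.7 and 699 TPM in preNeu and stood at 228, 293 and 214 TPM in matNeu libraries. The preNeu libraries were all above the matNeu libraries, and these were all above the GMP libraries. The log2 change was 2.89 (SE 0.14, adjusted p = 8.93e-08, limma) from GMP to preNeu, and from preNeu to matNeu Ltb4r1 fell by 1.67 (SE 0.14, adjusted p = 1.56e-06). Over both steps the log2 change was 1.21 (SE 0.14, adjusted p = 1.11e-05), which was 2.09 after median of ratios scaling and 2.47 after upper quartile scaling of the libraries. The fall from preNeu to matNeu had a log2 change of -1.3 and -1 under the same scalings and stayed past the threshold. In preNeu cells Ltb4r1 was in place 136 of all 34896 genes by mean TPM, and in matNeu cells in place 680. Ltb4r2, the low-affinity LTB4 receptor, whose gene lies just upstream, did not exceed 0.53 TPM in any library.

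Ptafr rose at both steps, with the larger log2 change at the first. Its levels were 4.52, 3.69 and 3.18 TPM in GMP, 34.4, 45.9 and 37.4 TPM in preNeu and 222, 204 and 262 TPM in matNeu libraries, with no overlap. The log2 changes were 3.07 (SE 0.18, adjusted p = 3.85e-07, limma) and 2.52 (SE 0.18, adjusted p = 4.99e-07). The ratio of Ltb4r1 to Ptafr was 24.1, 17.7 and 18.7 in preNeu and 1.03, 1.43 and 0.817 in matNeu libraries, with an exact permutation p of 0.1, two-sided, again the smallest possible. In all, 5 such ratios were tested, and with 3 libraries a group none can pass 0.05. The ratio of C5ar1 to Fpr1 was 7.92, 8.03 and 9.91 in preNeu and 1.05, 0.884 and 1.17 in matNeu libraries, and that of Ltb4r1 to C5ar1 was 2.74, 2.41 and 1.95 against 0.119, 0.131 and 0.103, each without overlap (exact permutation p = 0.1, two-sided).

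**Figure D3:**
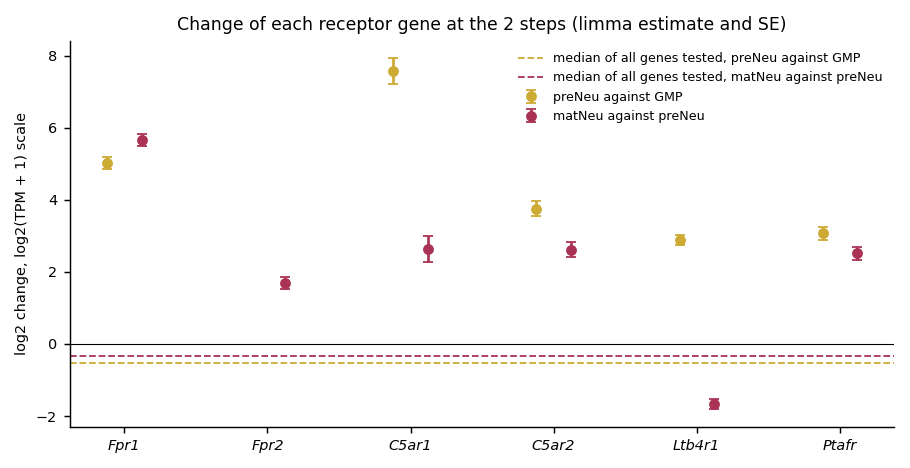
Log2 change (points) with its SE (bars) of the 6 tested receptor genes from GMP to preNeu and from preNeu to matNeu cells, on the log2(TPM + 1) scale, with the median of all genes tested at -0.52 and -0.32 (dashed lines). Fpr2 has no point for the first step since it is listed at 0 in GMPs, and Ltb4r1 is the one gene with a second step below 0, at -1.67.

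The order of the receptors by level differed between the stages. In GMPs Ltb4r1 was far above Ptafr, and the rest were at or below 2.74 TPM. Of these, C5ar1, Fpr1, C5ar2 and C3ar1 all overlapped each other in range, and Fpr2 was listed at 0. In preNeu cells the order was Ltb4r1, C5ar1, Fpr2, Ptafr, Fpr1, C5ar2 and C3ar1, with overlapping ranges for the pair Ptafr and Fpr1 only. In matNeu cells it was C5ar1, Fpr1, Fpr2, Ltb4r1, Ptafr, C5ar2 and C3ar1, where C5ar1 overlapped Fpr1, and Fpr2, Ltb4r1 and Ptafr all overlapped each other. The 7 genes together took 101 to 118 TPM in GMP, 1222 to 1342 TPM in preNeu and 4588 to 5680 TPM in matNeu libraries. C5ar1 and Fpr1 were in places 58 and 61 of all genes by mean TPM in matNeu cells.

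The genes whose course over the 9 libraries was closest to each receptor were found by the root mean square difference of centred log2(TPM + 1) values. Slfn1 was closest to Fpr1 (0.28), followed by Mmp8, a neutrophil collagenase (0.51), and Adam8 (0.59). For Fpr2 they were Fgr, a Src family kinase (0.35), Pilra (0.37) and Crispld2 (0.41), and for C5ar1 they were Cd300lf (0.61), Mmp9 (0.77) and Fgr (0.77). C5ar2 was closest to Fcgr4, an Fc receptor (0.30), Padi4 (0.31) and Rdh12 (0.31). Ltb4r1 was closest to Wipi1 (0.21), Abhd5 (0.24) and Hsd11b1 (0.24), whose means also peaked in preNeu cells, at 102, 332 and 621 TPM. Ptafr was closest to Slfn2 (0.12), Pi16 (0.15) and Carhsp1 (0.24). Among the receptors themselves C5ar2 and Ptafr were the most alike (0.38) and Fpr1 and Ltb4r1 the least (4.06).

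Among the genes for enzymes of the lipid ligands, Lta4h and Pla2g4a fell from preNeu to matNeu cells, while Alox5, Alox5ap, Lpcat2, Cyp4f18 and Pla2g7 rose. In the list of 14 genes for ligand sources and breakdown, 12 were tested, and in matNeu against GMP 9 rose and 2 fell, with a median log2 change of 3.01 against -0.92 for all genes. In preNeu against GMP 8 rose and 1 fell (9 and 0 after either other scaling), and in matNeu against preNeu 6 rose and 5 fell. Over all genes, 14.7% rose and 44.3% fell in preNeu against GMP and 22.9% rose and 39.8% fell in matNeu against preNeu. In matNeu against GMP 22.8% of all genes rose and 54.1% fell. Lta4h, whose product converts leukotriene A4 to LTB4, stood at 1393, 1536 and 1363 TPM in GMP, 2300, 2530 and 2914 TPM in preNeu and 59.8, 67.2 and 66.1 TPM in matNeu libraries. The matNeu libraries were all below the others, and Lta4h fell by 5.30 on the log2 scale from preNeu to matNeu (SE 0.11, adjusted p = 3.13e-10, limma). Cyp4f18, the enzyme that oxidises LTB4 in mouse neutrophils, went from 22.8, 19 and 21 TPM in preNeu to 2251, 2489 and 2171 TPM in matNeu libraries, a log2 change of 6.72 (SE 0.13, adjusted p = 1.77e-10). Alox5, which encodes 5-lipoxygenase and was singled out after its values were seen, as was Alox5ap, its activating protein, rose by 3.99 (adjusted p = 1.02e-08, limma) and then 1.00 (adjusted p = 0.000115), and Alox5ap by 1.30 (adjusted p = 2.75e-05) and then 1.93 (adjusted p = 7.28e-07).

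On the PAF side, Pla2g7, whose product hydrolyses PAF, was the gene of the list with the largest log2 change in matNeu against GMP (9.74, SE 0.33, adjusted p = 1.16e-09, limma) and in matNeu against preNeu. It went from 5.76, 5.8 and 5.78 TPM in preNeu to 1565, 1537 and 1746 TPM in matNeu libraries, a log2 change of 7.90 (SE 0.33, adjusted p = 1.05e-08, limma). Lpcat2, which makes PAF from its precursor and was also singled out after its values were seen, rose by 1.89 (adjusted p = 7.05e-06, limma) and then by 2.69 (adjusted p = 2.02e-07). Pla2g4a, the phospholipase that releases arachidonic acid, stood at 38.8, 47 and 48.3 TPM in preNeu and 13.8, 23.8 and 16.9 TPM in matNeu libraries and fell by 1.28 (SE 0.20, adjusted p = 0.000232, limma) on the log2 scale. In preNeu against GMP it had a log2 change of -0.13 (adjusted p = 0.594, limma), which was 0.37 and 0.43 under the other scalings.

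**Figure D4:**
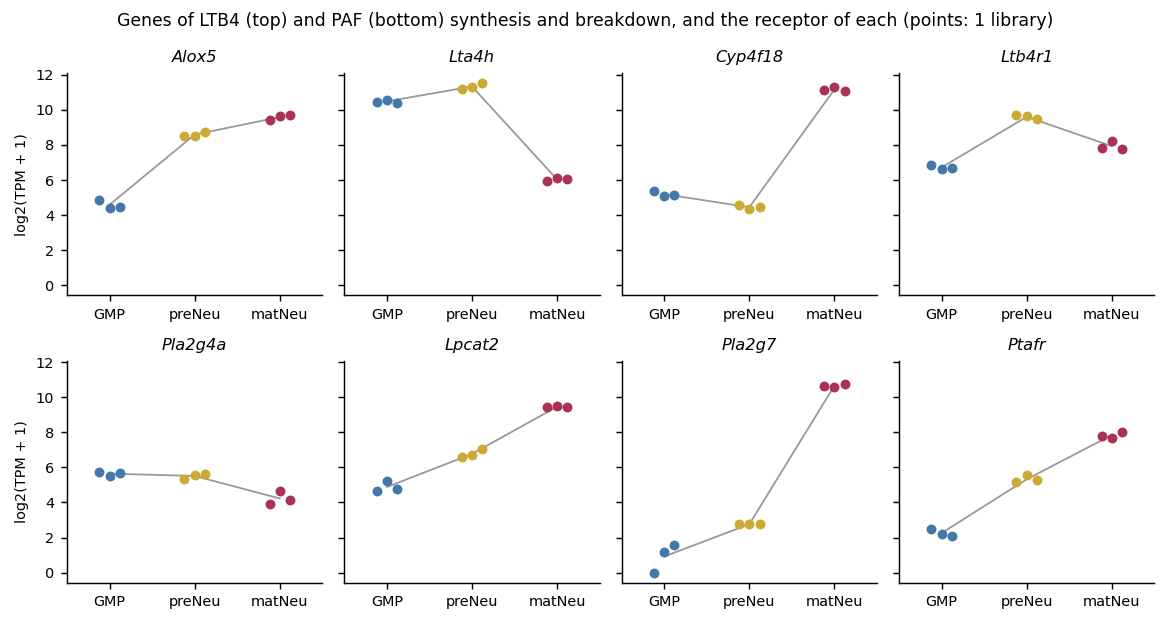
Level as log2(TPM + 1) in each library (points, line through the means of 3) of genes for LTB4 (Alox5, Lta4h, Cyp4f18 and the receptor gene Ltb4r1) and for PAF (Pla2g4a, Lpcat2, Pla2g7 and the receptor gene Ptafr). In matNeu cells Lta4h is at 59.8 to 67.2 TPM while Cyp4f18 is at 2171 to 2489 TPM and Pla2g7 at 1537 to 1746 TPM.

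Genes that act behind the receptors changed as well. Of 15 genes for receptor effectors, all tested, 11 rose and 2 fell in matNeu against GMP (median log2 change 1.69, against -0.92 for all genes). In preNeu against GMP 8 rose and 1 fell, and in matNeu against preNeu 10 rose and 2 fell. Over all genes, 22.8% rose and 54.1% fell in matNeu against GMP and 14.7% rose and 44.3% fell in preNeu against GMP. In matNeu against preNeu 22.9% of all genes rose and 39.8% fell. The largest rise in matNeu against GMP was that of Fgr, with a log2 change of 8.80 (SE 0.13, adjusted p = 1.39e-11, limma). The 2 that fell were Plcb2, a phospholipase C (log2 change -0.41, adjusted p = 0.0232, limma), and Vav1, a guanine nucleotide exchange factor (log2 change -0.33, adjusted p = 0.0373), and both directions turned with the scaling. After median of ratios and upper quartile scaling Plcb2 had log2 changes of 0.46 and 0.83 and Vav1 of 0.55 and 0.92, and 14 and 15 of the 15 genes rose. In preNeu against GMP 11 and 12 rose and 0 fell under these scalings.

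The 10 G protein subunits, all tested, were divided. In matNeu against GMP 5 rose and 4 fell, with a median log2 change of 0.11 against -0.92 for all genes. In preNeu against GMP 4 rose and 4 fell, and in matNeu against preNeu 3 rose and 2 fell. Over all genes, 22.8% rose and 54.1% fell in matNeu against GMP and 14.7% rose and 44.3% fell in preNeu against GMP. In matNeu against preNeu 22.9% of all genes rose and 39.8% fell. The values of the 10 subunits moved with the scaling. After median of ratios and upper quartile scaling the median in matNeu against GMP was 0.99 and 1.37, with 6 and 7 genes that rose and 3 that fell. In preNeu against GMP 6 rose and 3 fell under either, and in matNeu against preNeu 4 rose and 2 fell under the first, and 5 rose and 1 fell under the second. Gnai2, the main inhibitory alpha subunit of leukocytes, rose by 1.53 (SE 0.14, adjusted p = 2.24e-06, limma) from GMP to matNeu. Gng2 had 32, 27.3 and 23.2 TPM in GMP, 4.97, 6.4 and 1.73 TPM in preNeu and 94, 96.8 and 83.8 TPM in matNeu libraries, and so was lowest in preNeu cells, where Ltb4r1 was highest. Gna15, an alpha subunit that couples many receptors to phospholipase C, stood at 90.2, 96.1 and 97.1 TPM in preNeu and 9.97, 11.6 and 10.6 TPM in matNeu libraries. It fell by 3.06 (SE 0.16, adjusted p = 2.71e-08, limma) from GMP to matNeu, and Gnb4 fell by 3.34 (SE 0.29, adjusted p = 1.27e-06).

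Of 11 genes for receptor desensitization, all tested, 9 rose and 1 fell in matNeu against GMP (median log2 change 1.65, against -0.92 for all genes). The counts were 6 and 1 in preNeu against GMP and 6 and 2 in matNeu against preNeu. Over all genes, 22.8% rose and 54.1% fell in matNeu against GMP and 14.7% rose and 44.3% fell in preNeu against GMP. In matNeu against preNeu 22.9% of all genes rose and 39.8% fell. In preNeu against GMP 8 rose and 1 fell under either other scaling, and in matNeu against preNeu 6 and 8 rose and 1 fell. Rgs2, a regulator of G protein signalling, had the largest rise (3.47, SE 0.14, adjusted p = 3.22e-09, limma) and did so mainly at the last step. Arrb2, a beta-arrestin, followed (3.21, SE 0.15, adjusted p = 1.26e-08). It went from 28.9, 38.6 and 45.1 TPM in GMP to 332, 369 and 360.3 TPM in preNeu and was at 323, 359 and 367 TPM in matNeu libraries, where its log2 change from preNeu was -0.02 (adjusted p = 0.93, limma) and 0.35 and 0.66 under the other scalings. Grk3, a receptor kinase, was the gene that fell, from 30.2, 30.2 and 24.9 TPM in GMP to 0.244, 0.235 and 0.885 TPM in matNeu libraries (log2 change -4.36, SE 0.26, adjusted p = 5.94e-08, limma).

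Of 10 other receptor genes, relatives of the 7 or receptors of other lipid and small ligands, 2 passed the filter on low values. Of these 1 rose and 0 fell in each of the 3 comparisons. Over all genes, 14.7% rose and 44.3% fell in preNeu against GMP and 22.9% rose and 39.8% fell in matNeu against preNeu. In matNeu against GMP 22.8% of all genes rose and 54.1% fell. Of the 2 genes tested, the one that rose was Hcar2, the receptor of nicotinic acid, which passed the filter only with its matNeu libraries. It stood at 0, 0.505 and 0.589 TPM in GMP, 0.548, 1.8 and 2.64 TPM in preNeu and 301, 260.5 and 381 TPM in matNeu libraries. From preNeu to matNeu its log2 change was 6.96 (SE 0.34, adjusted p = 2.96e-08, limma). From GMP to preNeu it was 0.91 (SE 0.34, adjusted p = 0.039, limma), between overlapping ranges near the floor. Fpr-rs3, Fpr-rs4, Fpr-rs6 and Fpr-rs7, relatives of the formyl peptide receptors, were listed at 0 in all 9 libraries.

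CHD4 peaks were listed near 5 of the 7 genes in WT GMPs. A peak was counted when it lay within 10 kb of the gene, and peaks shared by 2 genes were counted once. Over all protein-coding genes 32.4% had such a peak. The 22 peaks near the receptors comprised 11 at Fpr1 and Fpr2, 6 at C3ar1, 3 at Ptafr and 2 at Ltb4r1. C5ar1 and C5ar2 had none, and the nearest CHD4 peak was 144.0 kb from the start of C5ar1. With 1 library per genotype no difference between WT and Gfi1-/- cells has a replicate check.

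Of the 22 peaks, 8 were kept in Gfi1-/- GMPs, that is, overlapped a peak of that list, against 18.5% of all 35790 WT peaks. The Gfi1-/- list holds only 7316 peaks, so most WT peaks could not be kept. Depth is unknown, and a WT peak that was not kept is not shown to be lost. The paper, which counts fewer WT peaks, reports that most sites shared by GFI1 and CHD4 lost CHD4 in Gfi1-/- GMPs. It describes sites with CHD4 alone as largely unaffected. Which of these classes the receptor peaks belong to was not determined, since no GFI1 list was used. The kept peaks were at 2 of the 5 loci: 6 of 11 at Fpr1 and Fpr2 and 2 of 6 at C3ar1. None of the 3 peaks at Ptafr or the 2 at Ltb4r1 was kept, so that 3 of the 7 genes had a Gfi1-/- peak within 10 kb, beside 10.2% of protein-coding genes. How often any WT peak was kept went with its fold enrichment, the ratio of signal over background that the peak caller gives. When all WT peaks were divided into 10 classes of equal size by this value, 92.9% were kept in the highest class, and 3 of 3 peaks near the receptors. In the next class 49.9% of all peaks and 3 of 5 near the receptors were kept, and in the one after 20.7% and 1 of 5. Among 9 receptor peaks below these, 1 was kept, where 0.643 to 8.63% of all peaks in a class were kept.

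The strongest CHD4 peak near any of the 7 genes stood upstream of C3ar1, which was at or below 0.203 TPM in GMPs. It lay at chr6:122862675-122863481, with its summit at -6.9 kb from the start of C3ar1, between genes. Its fold enrichment was 45.6 in WT GMPs, which placed it 431 among 35790 peaks, and a peak with a fold enrichment of 16.9 was listed there in Gfi1-/- GMPs, in place 273 of 7316. Fold enrichments are compared only within 1 list. A further peak over the C3ar1 start (chr6:122855967-122856383, fold enrichment 12.4) was not kept, and one in its intron (chr6:122852622-122853124, fold enrichment 21.2) was the strongest of the receptor peaks that were not kept.

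At Fpr1 and Fpr2 the CHD4 peaks lay on both sides of the gene pair, inside Fpr2 and over the start of Fpr2. The peak over the Fpr2 start (chr17:17887696-17888196, fold enrichment 12.7) had its summit in the first exon, a UTR, and was not kept. The strongest was at chr17:17900519-17901214 (fold enrichment 22.6), 13.1 kb from the Fpr2 start inside the span of Fpr3, and was kept. Another pair that was kept lay downstream of Fpr1, at 12.8 and 12.0 kb from its start, with fold enrichments of 20.5 and 19.7. A peak in the Fpr2 intron (chr17:17889652-17890486, fold enrichment 13.9) was kept as well. No CHD4 peak covered the start of Fpr1.

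Ptafr had a CHD4 peak over its start (chr4:132563912-132564294, fold enrichment 11.2) and a stronger one between genes, 27.3 kb from the start (chr4:132591161-132591794, fold enrichment 19.9), neither of them kept. The 2 peaks at Ltb4r1 lay inside the neighbouring gene Ltb4r2 and were weak (fold enrichment 5.58 and 5.28). In all, the start sites of 3 of the 7 genes (Fpr2, C3ar1 and Ptafr) were under a CHD4 peak in WT GMPs, against 4.01% of protein-coding genes, and 0 of 7 in Gfi1-/- GMPs, against 0.748%.

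The 101 bases around 4 of these summits are shown (GRCm38.p6, plus strand, capitals as above), as the strongest CHD4 sites at C3ar1, beyond Fpr2, beyond Fpr1 and at Ptafr, of which the last was not kept.
C3ar1, -6.9 kb, kept (chr6:122863052-122863152): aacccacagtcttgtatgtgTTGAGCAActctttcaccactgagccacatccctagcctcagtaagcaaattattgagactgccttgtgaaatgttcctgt
Fpr2, 13.1 kb, kept (chr17:17900873-17900973): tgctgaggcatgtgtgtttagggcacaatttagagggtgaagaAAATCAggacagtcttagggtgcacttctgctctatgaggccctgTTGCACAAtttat
Fpr1, 12.8 kb, kept (chr17:17871082-17871182): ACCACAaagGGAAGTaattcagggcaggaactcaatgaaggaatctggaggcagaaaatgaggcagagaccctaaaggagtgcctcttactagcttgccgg
Ptafr, 27.3 kb, not kept (chr4:132591343-132591443): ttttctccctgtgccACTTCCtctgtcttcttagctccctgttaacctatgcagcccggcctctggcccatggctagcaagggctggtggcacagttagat
The window beyond Fpr2 was the 1 of 22 receptor windows with AAATCA, which 5.62% of the windows around all 35728 WT CHD4 summits on assembled chromosomes held, and it also held TTGCNNAA, as did the C3ar1 window. The Fpr1 and Ptafr windows held GGAAGT, and the Fpr1 window TGTGGT as well. GGAAGT was in 6 of 22 receptor windows and in 27.4% of all, TTGCNNAA in 3 of 22 and 9.72%, and TGTGGT in 3 of 22 and 13.9%.

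H3K4me2 spread over the receptor loci after the GMP stage. In GMPs the start sites of 3 of the 7 genes were under an H3K4me2 peak, those of C5ar2, Ltb4r1 and Ptafr, beside 49.7% of all protein-coding genes. In preNeu cells it was 7 of 7, beside 55.2%, and in matNeu cells 6 of 7, all but C3ar1, beside 52.8%. The preNeu peak over the C3ar1 start was short and weak (226 bp, fold enrichment 2.88). Fpr1, Fpr2 and C5ar1 gained cover in both later lists that they lacked in GMPs, which held for 7.3% of protein-coding genes. The lists are 1 library each and differ in extent, with 49.8, 97.9 and 80.4 Mb covered in GMP, preNeu and matNeu cells.

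Within 10 kb of the gene, H3K4me2 peaks covered 11.2% of the Fpr1 window in GMPs, 86.3% in preNeu and all of it in matNeu cells. For Fpr2 the values were 0, 82 and 92.2%, and for C5ar1 10.6, 73.2 and 71.8%. Over all protein-coding genes the median was 3.83, 6.43 and 4.81%, and the 90th percentile was 17.4, 28.8 and 24.4%. C5ar2 went from 11.8 to 47.4 and 56.4%, and Ptafr from 8.35 to 37.4 and 45.8%. Ltb4r1 had 34.1, 69.9 and 58.4%, the widest cover of the 7 genes in GMPs. Its cover, like its transcript level, was highest in preNeu cells. Cover was also highest there for C5ar1, whose transcript level was highest in matNeu cells, for C3ar1 and for the median of all genes. C3ar1 had 0, 9.87 and 9.07%, the lowest cover of the 7 genes in the later lists. Windows of Fpr1 and Fpr2, and of C5ar1 and C5ar2, overlap and are not independent.

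In matNeu cells a single H3K4me2 peak of 40103 bp (chr17:17861816-17901918) ran over both formyl peptide receptor genes and overlapped all 11 CHD4 sites of WT GMPs there. By length it was in place 6 of 44094 peaks in the matNeu list. A peak of 22672 bp (chr7:16237465-16260136), in place 64, ran over the starts of both C5a receptor genes. In preNeu cells the same loci carried several peaks, the longest of them 15951 bp over the starts of Fpr1 and Fpr2 and 13918 bp over the start of C5ar1. The preNeu peak at Ltb4r1 (chr14:55757367-55771363) was 13997 bp long, with a fold enrichment of 13.2, and the matNeu peak there 10754 bp. In GMPs an H3K4me2 peak of 6858 bp already covered Ltb4r1, in place 235 of 37643 by length.

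Of the 22 WT peaks near the receptors, 7 overlapped an H3K4me2 peak in GMPs, 19 in preNeu and 18 in matNeu cells. Of all 35790 WT peaks, 37.8, 59.5 and 52.5% did so, and the later lists also cover more of the genome. At the site upstream of C3ar1 no H3K4me2 peak was listed in GMPs, and peaks of 2450 bp (fold enrichment 6.93) and 2294 bp (fold enrichment 3.8) were listed in preNeu and matNeu cells, although C3ar1 itself stayed at or below 1.1 TPM.

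**Figure D5:**
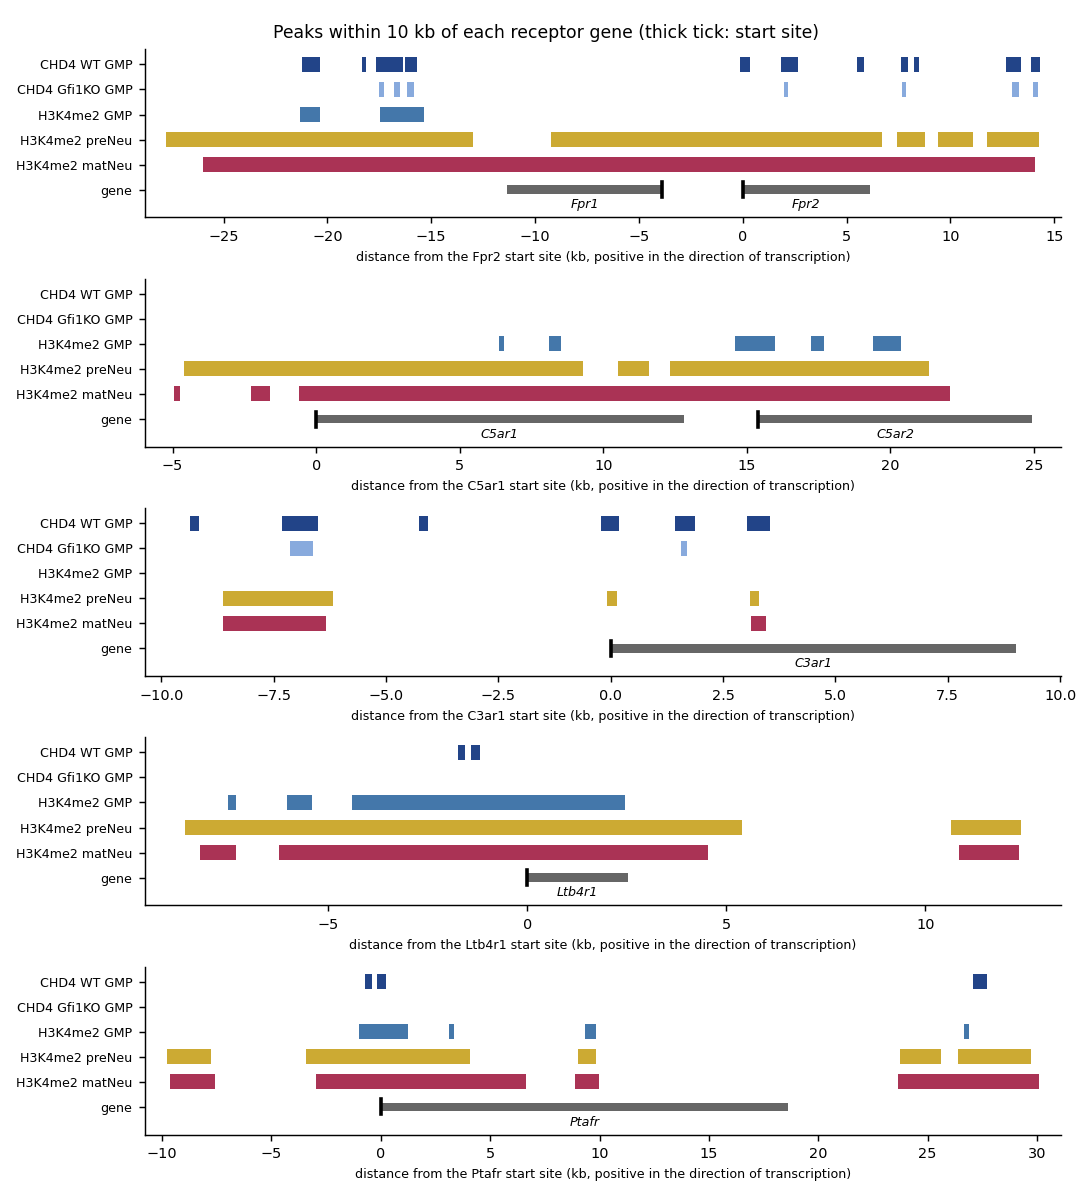
Peaks within 10 kb of the 7 genes (bars, 1 row per list) against the distance from a start site in kb, with the gene in grey and its start as a thick tick. CHD4 peaks stand at all loci but C5ar1 and C5ar2, and the matNeu H3K4me2 peak of 40103 bp spans Fpr1 and Fpr2.

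Open chromatin had been mapped by ATAC-seq in preNeu and in matNeu cells, but all 16307 intervals are the same in both deposited lists, which were used as 1 list and cannot tell the stages apart. An interval covered the start of 1 of the 7 genes, Ptafr (fold enrichment 4.08), beside 30.3% of protein-coding genes, and ended 25 bp from the start of C5ar1 and 13 bp from that of C5ar2. The interval near C3ar1 (chr6:122862867-122863199) lay within the strong CHD4 site upstream of the gene.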

How the data were processed

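RNA-seq was deposited as TPM per gene and library. Per the labels, processing used FastQC 0.11.5, Trimmomatic 0.36, BWA 0.7.17, MACS2 2.1.0 and kallisto 0.44.0 with mm10, whereas the methods name other tools for RNA-seq, so how the authors made TPM is not settled. TPM keeps no depth, and sequencing depth is unknown. Peak lists were deposited with a fold enrichment (a linear ratio) and a −log10 q-value per peak by the authors. Samples were grouped by title, since another label gives a different cell type for some. GFI1 and H3K4me3 lists, which are not in mouse coordinates, were not used.

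Expression was tested with limma 3.58.1 (R 4.3.3) on log2(TPM + 1) for those genes that reached 1 TPM in 3 or more of the 9 libraries. The 9 libraries entered 1 model of cell type, with a variance trend, two-sided tests and Benjamini-Hochberg adjustment at 0.05, after a check on simulated data. With 3 libraries against 3, exact permutation tests cannot go below p = 0.1. Peaks within 10 kb of a gene were counted, with kept peaks overlapping by at least 1 bp. Named genes were all 7 receptors, of each gene list the 2 largest rises and 2 largest falls past the threshold in matNeu against GMP, and the 3 genes closest in course to each receptor. A gene that this rule also names is not reported here. The receptors and lists were chosen with earlier results of these data known. Alternatives were a pseudocount of 0.1, no filter, 2 scalings, a replicate block, the compared groups alone, no trend, each library left out, windows of 5 and 25 kb, a −log10 q-value of at least 5, and for kept peaks an overlap of 50% of the shorter peak or summits within 200 bp. For the named list genes both scalings were added after seeing the data.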

Additional observations from a re-analysis of the deposited data

How the results depend on the processing

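The 6 counts of receptors called were the same under all 16 alternatives. The 18 log2 changes of receptors each kept their direction and side of the threshold. The 3 counts of genes called moved with the setting. With each library left out, genes called ranged from 6504 to 7859 in preNeu against GMP, 7451 to 8154 in matNeu against preNeu and 9198 to 10021 in matNeu against GMP. The replicate numbers did not pair the libraries (correlations of deviations between -0.039 and 0.123), and with a replicate block 7652, 8142 and 10032 genes were called in these comparisons, against 7706, 8197 and 10041 without it, and the same numbers of receptors (6, 5 and 6 higher). Scaling moved the balance of calls: 25, 36.5 and 29.6% of calls were higher in the 3 comparisons, 45.1, 47.2 and 45.2% after median of ratios scaling and 48.2, 55.3 and 51.7% after upper quartile scaling, and the median log2 change of all genes in matNeu against GMP went from -0.92 to -0.2 and 0.1. Among named list genes, a check added after seeing the data, some directions turned under median of ratios and upper quartile scaling: in preNeu against GMP Gna15 (0.48 and 0.54) and Pla2g4a (0.37 and 0.43), in matNeu against preNeu Arrb2 (0.35 and 0.66) and, under the upper quartile only, Vav1 (0.27), and in matNeu against GMP Plcb2 (0.46 and 0.83) and Vav1 (0.55 and 0.92). The fall of Pla2g4a in matNeu against GMP (-0.19 under the upper quartile) and of Cyp4f18 in preNeu against GMP (-0.25 and -0.18) no longer passed the threshold.

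Counts of peaks depended on the window and the threshold. With 5 kb in place of 10 kb, 5 WT CHD4 peaks were kept, 4 Gfi1KO CHD4 peaks were near the receptors and 8 matNeu H3K4me2 peaks. With 25 kb there were 25 GMP, 32 preNeu and 28 matNeu H3K4me2 peaks in place of 14, 18 and 13. At a −log10 q-value of at least 5 there were 1, 11 and 7, and 1 of the 7 genes, Ltb4r1, had a GMP H3K4me2 peak over its start in place of 3. In preNeu cells 6 of the 7 genes had such a peak in place of 7, all but C3ar1. The depth of the libraries is unknown, so a peak that is not listed is not shown to be absent, and 1 library per list gives no replicate check.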
